A study of Mus musculus with 6 samples.

Results

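The accessibility of 42 genes that run DNA replication and the cell cycle was examined in ATAC-seq libraries from mouse small intestinal crypts. Members were found by name. A peak belonged to a gene when its deposited gene label equalled the gene's symbol. This gave 59 of 123510 peaks, for 37 of the 42 genes. No peak value entered this match by name, but the gene list was drawn up with earlier results of these data known. The list held 21 replication genes, 5 regulators of the step from G1 to S phase, 13 mitotic genes and 3 inhibitors of cyclin-dependent kinases. There were 3 WT libraries from wild type C57BL/6 mice and 3 Smarcad1-KO libraries from C57BL/6 mice in which Vil-Cre, a Cre recombinase driven by the Villin promoter, deleted the chromatin remodeler Smarcad1. Villin is active in the intestinal epithelium, so nuclei of other cells in a crypt preparation keep the gene. The nuclei came from whole crypts, which mix stem, dividing, secretory and maturing cells, and the mice's age is not given in the sources used here. In such bulk nuclei, a smaller share of dividing cells and a lower accessibility in each cell cannot be told apart.

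A eukaryotic cell licenses its replication origins in G1, when ORC, Cdc6 and Cdt1 load the MCM helicase onto DNA. Cyclin E and Cdk2 then start S phase, in which PCNA, its loader RFC and polymerase alpha with primase copy the DNA and CAF-1 packs the new strands into nucleosomes. Cyclins A and B with Cdk1, the Aurora and Polo kinases and the spindle checkpoint drive mitosis. Many genes of the first kind are known targets of E2F factors, and many of the second are known to be regulated through CHR and CCAAT elements bound by MuvB and NF-Y complexes. Crypts hold the dividing cells of the intestine, and Smarcad1 is known to associate with PCNA at replication forks.

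The promoter sequences of the replication and mitotic classes differed in these elements. RefSeq promoter windows of GRCm38.p6, from 250 bases before to 50 bases after the gene start, were matched for 35 of the 42 genes, and 29 of these windows lay under the gene's own promoter peak (a peak with the gene's name within 1 kb of one of its annotated starts). The E2F motif (TTTCCCGC, TTTCGCGC, TTTGCCGC or TTTGGCGC, either strand) was in 7 of 14 replication windows and 1 of 10 mitotic windows, against 2.26% of all 32851 windows and 3.79% of the 14631 windows under a peak. The replication genes with a match were Cdc6, Mcm3, Mcm5, Mcm6, Mcm7, Pola1 and Rfc3, and the mitotic gene was Cdk1. The CHR element (TTTGAA or TTCGAA, either strand) was in 8 of 10 mitotic windows and 3 of 14 replication windows, against 19.2% of all windows and 13.9% of windows under a peak. Ccnb1 and Birc5 were the mitotic genes without it, and Mcm2, Mcm7 and Rfc3 the replication genes with it. Each of these 11 windows also held a CCAAT box, a combination found in 5.57% of windows under a peak. CCAAT (either strand) was common to both classes, in 11 of 14 replication and 9 of 10 mitotic windows against 37.5% of windows under a peak. The SP1 motif (GGGCGG, either strand) was in 9 of 14 and 8 of 10, near the 60.4% of windows under a peak. An E2F match can overlap an SP1 match, and a palindromic E2F site can match on both strands at once. These are matches of letters, and no binding was measured.

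**Figure D1:**
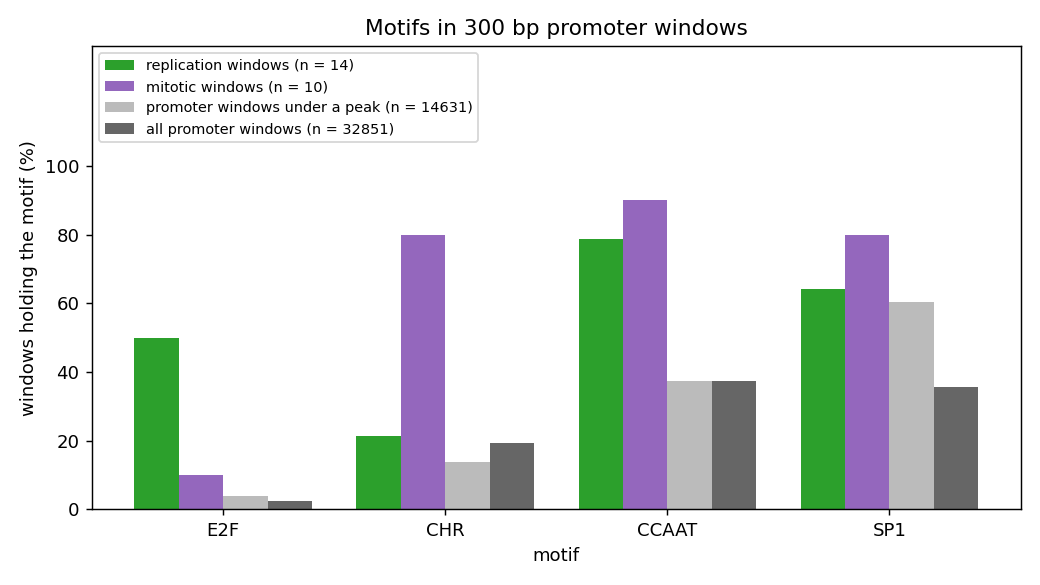
Share of 300 bp RefSeq promoter windows that hold each motif (y axis, percent), for replication genes (green), mitotic genes (purple), windows under any peak (light grey) and all windows (dark grey). E2F stands at 50.0% in replication windows and 10.0% in mitotic windows, and CHR at 21.4% and 80.0%.

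The following stretches of sequence before the gene start show these differences, with E2F, CHR and CCAAT matches in capitals and any bases annotated as untranslated exon left out. Pcna had the highest promoter level in WT among replication genes and Ccnb1 the highest among mitotic genes with a window (Ccna2, which was higher, was not in the RefSeq table). Mcm6 held the largest number of E2F matches, Mcm3 had the largest spread between libraries, Top2a held the largest number of CHR matches, and Cdk1 was the mitotic gene that held all 3 kinds. Sequences run 5′ to 3′ on the gene's strand.
Pcna (chr2:132253315-132253430, minus strand): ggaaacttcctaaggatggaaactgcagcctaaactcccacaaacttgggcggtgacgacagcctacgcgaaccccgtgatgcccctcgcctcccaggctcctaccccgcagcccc
Mcm6 (chr1:128359706-128359955, minus strand): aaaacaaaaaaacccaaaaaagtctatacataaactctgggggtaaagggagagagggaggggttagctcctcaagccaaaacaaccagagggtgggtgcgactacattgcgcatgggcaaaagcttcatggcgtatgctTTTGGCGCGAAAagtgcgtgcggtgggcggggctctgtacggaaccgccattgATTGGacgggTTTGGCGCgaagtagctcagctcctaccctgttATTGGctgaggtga
Mcm3 (chr1:20820313-20820562, minus strand): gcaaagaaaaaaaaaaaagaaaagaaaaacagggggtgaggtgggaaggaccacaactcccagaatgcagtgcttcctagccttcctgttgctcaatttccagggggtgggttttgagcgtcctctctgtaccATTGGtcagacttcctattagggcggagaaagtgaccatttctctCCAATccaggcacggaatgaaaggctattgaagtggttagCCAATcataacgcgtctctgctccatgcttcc
Ccnb1 (chr13:100786571-100786736, minus strand): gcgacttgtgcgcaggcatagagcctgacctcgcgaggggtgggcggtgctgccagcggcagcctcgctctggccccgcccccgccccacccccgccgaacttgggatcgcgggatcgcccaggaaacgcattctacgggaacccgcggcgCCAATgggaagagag
Top2a (chr11:99024190-99024439, minus strand): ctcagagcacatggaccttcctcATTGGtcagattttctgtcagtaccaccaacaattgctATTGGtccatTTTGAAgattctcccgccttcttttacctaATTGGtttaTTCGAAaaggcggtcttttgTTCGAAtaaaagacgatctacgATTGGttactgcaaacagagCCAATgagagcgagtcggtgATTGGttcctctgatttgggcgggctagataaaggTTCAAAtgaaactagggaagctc
Cdk1 (chr10:69352939-69353162, minus strand): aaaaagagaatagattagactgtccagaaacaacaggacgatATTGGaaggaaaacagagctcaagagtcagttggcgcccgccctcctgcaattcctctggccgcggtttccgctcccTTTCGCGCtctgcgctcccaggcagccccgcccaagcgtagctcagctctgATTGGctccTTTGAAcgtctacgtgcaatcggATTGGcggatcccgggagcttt
In Mcm6 the run of 12 capitals is a pair of overlapping E2F matches, and a further match lies nearer the start. The E2F matches of Mcm3 lay in the 50 bases after its start and are not printed. Pcna shows no match in capitals in the stretch printed.

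Of the 42 genes, 35 had a promoter peak of their own name, 17 of them replication, 4 G1/S, 12 mitotic and 2 inhibitor genes. The remaining 24 peaks lay elsewhere, 9 over coding exons, 6 in introns, 7 outside the gene, 1 over a noncoding exon and 1 at a second start of Cdkn2a. No peak was named for Cdkn1a (the p53-induced inhibitor p21), Plk1 (Polo-like kinase), Rrm2 (the small subunit of ribonucleotide reductase), Gins2 (a subunit of the GINS helicase complex) or Cdt1 (an MCM loader). The starts of Gins2 and Cdt1 lay under peaks that carry the name Gm20388, that of Plk1 under a peak named Gm15489 and that of Orc1, the large subunit of the origin recognition complex, under a peak named Prpf38a. In the table used here no peak lay within 5 kb of Rrm2 or Cdkn1a. E2f2, an activating E2F factor, had 5 peaks, the nearest 2233 bp from a start. The promoter peaks of Cdk2, Mcm4, Mcm7 and Aurka also hold the start of a neighbouring protein-coding gene (Pmel, Prkdc, Ap4m1 and Cstf1), so their reads are shared.

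Values are log2 read counts scaled to the largest library, and levels are compared between peaks per kb of peak width. In WT, the median level of the 35 promoter peaks was 7.65 (log2 normalized reads per kb), against 7.14 for the 16137 promoter peaks of all named genes, and 28 of the 35 lay above that median. Per library, the member promoters exceeded the named promoters by 0.48 ± 0.112 in WT and 0.40 ± 0.0889 in KO (difference of medians, log2, SD, n = 3 each). The 80 promoter peaks of 98 other cell cycle genes had a median of 7.81, so a level above the average promoter was shared with the wider cell cycle list. In both lists each gene entered with its strongest promoter peak. The 16137 named peaks, also used for percentiles, hold every named peak within 1 kb of a start, weaker second peaks of a gene included. The part of this rule in the gap was not tested.

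Among peaks that carry their own gene's name, the highest replication promoter was that of Pcna, the sliding clamp of the replication fork, on chromosome 2 from 132252301 to 132253800. Its log2 values were 9.55, 9.03 and 9.81 in WT1 to WT3 and 9.48, 9.07 and 9.91 in KO1 to KO3. Its WT level of 8.88 per kb was higher than 98.1% of named promoter peaks. The lowest replication promoter was that of Rfc2, a subunit of the clamp loader that places PCNA on DNA (chromosome 5, 134582401 to 134583900). Its log2 values were 7.26, 7.07 and 7.66 in WT and 7.25, 6.89 and 7.46 in KO, and its level of 6.74 per kb lay at the 34.4 percentile of named promoters. In linear terms Pcna had 471.1 and Rfc2 107.2 normalized reads per kb in WT. The clamp and its loader therefore spanned the range of the replication class, with every Pcna value above every Rfc2 value per library.

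Among the licensing and helicase genes, levels ran from 8.44 per kb at Mcm4 to 7.07 at Mcm6, which are subunits of the same helicase. Mcm4 (chromosome 16, 15636151 to 15638700) had log2 values of 9.87, 9.33 and 10.1 in WT and 9.79, 9.27 and 10.2 in KO. Mcm6 (chromosome 1, 128357401 to 128360550) had 8.91, 8.13 and 9.15 in WT and 8.87, 8.13 and 9.48 in KO. The Mcm6 peak was 3150 bp wide, and its whole-peak value lowers when expressed per kb. Of the genes that supply nucleotides, Rrm1, the large subunit of ribonucleotide reductase, stood at 7.96 per kb and Tyms, thymidylate synthase, at 6.77. The Rrm1 values were 8.19, 7.51 and 8.40 in WT and 7.92, 7.56 and 8.58 in KO, and those of Tyms were 6.78, 6.58 and 7.17 in WT and 6.98, 6.38 and 6.95 in KO. The subunits of the chromatin assembly factor CAF-1 were at 8.12 (Chaf1b) and 7.65 (Chaf1a), and Chaf1b read 8.89, 8.71 and 9.31 in WT and 9.25, 8.44 and 9.38 in KO.

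The G1/S regulators had a median of 8.18 per kb. Ccne1, cyclin E1, was highest at 8.46 (log2 values 9.72, 9.19 and 9.99 in WT and 9.44, 9.07 and 10.1 in KO). Cdk2, its kinase partner, was lowest at 7.30 (7.77, 7.71 and 8.18 in WT and 8.11, 7.41 and 8.57 in KO). Among mitotic genes, Ccna2, cyclin A2, reached 8.83 per kb, close to Pcna, with 9.99, 8.82 and 10.2 in WT and 9.74, 8.87 and 10.4 in KO. Aurkb, the kinase of the chromosomal passenger complex, was lowest at 6.83, with 6.995, 6.97 and 7.32 in WT and 7.41, 7.10 and 7.49 in KO. The inhibitor Cdkn1b (p27) was at 7.89 per kb, with 9.32, 8.94 and 9.48 in WT and 9.30, 8.81 and 9.93 in KO. Cdkn2a, a tumour suppressor locus that encodes p16 and p19, had the lowest promoter level of the 35 at 6.36, at the 16.2 percentile of named promoters. Its values were 6.97, 6.90 and 7.38 in WT and 6.96, 7.04 and 7.58 in KO. A weaker peak at a second start of Cdkn2a, not counted among the 35, stood at 6.19 per kb in WT. It held 9 to 32 reads per library.

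**Figure D2:**
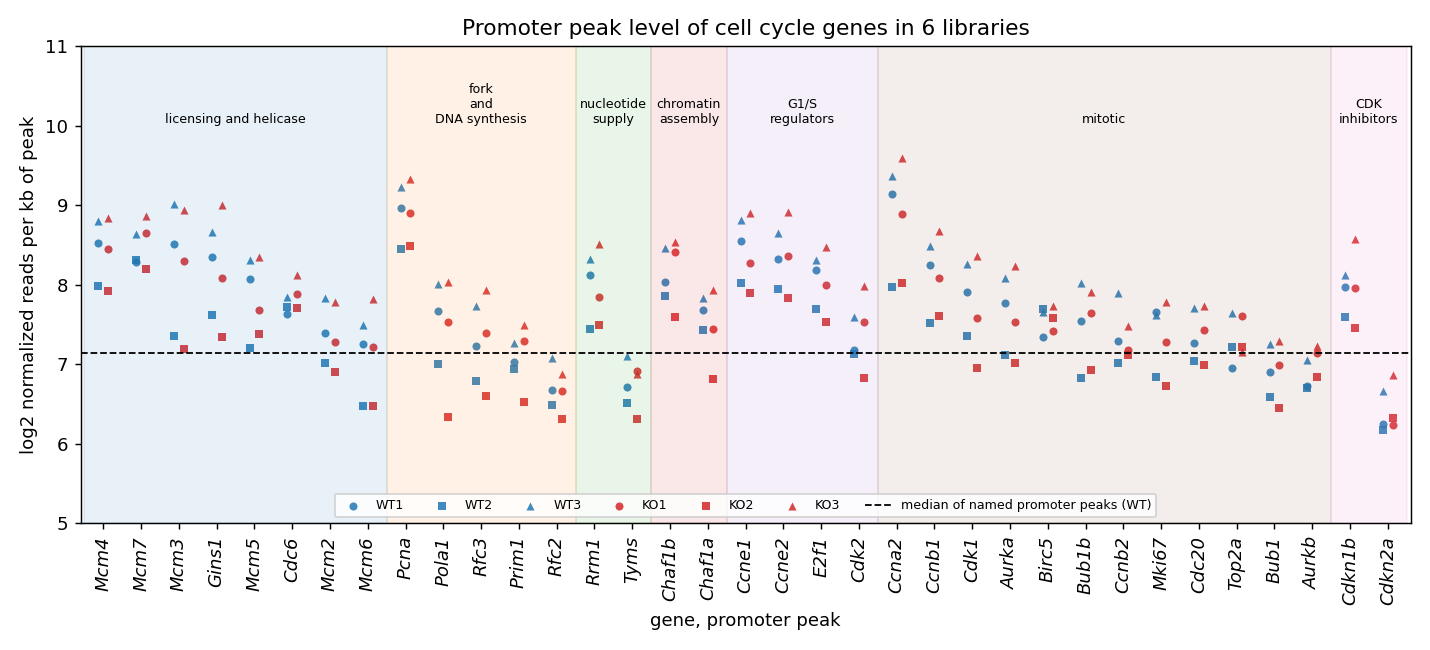
Level of each promoter peak (y axis, log2 normalized reads per kb of peak) for 35 genes ordered by role and WT level (x axis), with 1 point per library, WT in blue and KO in red, and the median of named promoter peaks in WT as a dashed line at 7.14. Pcna and Ccna2 stand highest and Cdkn2a lowest, and the WT and KO points of each gene overlap.

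Replication and mitotic promoters overlapped almost fully in level. The replication class ran from 6.74 to 8.88 and the mitotic class from 6.83 to 8.83 per kb. The medians of the classes were 7.73 and 7.43. Within libraries the replication median exceeded the mitotic median by 0.24, 0.28 and 0.21 in WT1 to WT3 and by 0.20, 0.19 and 0.36 in KO1 to KO3. The sign was the same in the 6 libraries and the WT and KO values overlapped. These libraries measure the same promoters, so they do not speak to whether another choice of genes would give the same order. The difference depended on the scaling to width, and was 0.026 ± 0.191 (SD, n = 3) when whole-peak values were used.

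The comparison of Smarcad1-KO with WT asked whether loss of the remodeler changes accessibility at these genes. No member peak passed the test, and the typical change was close to 0. With limma over all peaks, 0 of 59 member peaks and 0 of 123510 peaks (0%) passed an adjusted p-value of 0.05, and each member's adjusted p-value was 1 after rounding. The paper, using edgeR, reports some sites with changed accessibility, mostly increases. The 0 over all peaks therefore belongs to the limma fit used here, and whether those sites include a member was not examined. At an unadjusted limma p-value below 0.05 there was 1 of 59 member peaks and 0 of the 35 promoter peaks, against 2.28% of all peaks (0.909% higher and 1.37% lower in KO) and 0.75% of named promoter peaks.  The p-values measure the spread between these libraries.

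At the promoter peaks, 18 of 35 log2 fold changes were above 0 and the median was 0.01, against 0.01 for named promoter peaks and -0.02 for all peaks. The 17 replication promoters had a median of -0.03, with 7 above 0, and the 12 mitotic promoters had 0.01, with 7 above 0, a median that was -0.03 with voom on recovered reads. Leaving out 1 library moved both medians past 0 in either direction, from -0.26 (without WT2) to 0.23 (without KO2) for replication and from -0.27 to 0.22 for mitotic promoters. The helicase and licensing genes had a median of -0.05 and the fork genes 0.02, with Pcna at 0.02 (95% interval -0.76 to 0.81). The largest falls were at Pola1, the catalytic subunit of DNA polymerase alpha (-0.26, SE 0.407), Chaf1a (-0.25, SE 0.332) and Cdk1, the mitotic kinase (-0.21, SE 0.392). The largest rise was at Aurkb (0.24, SE 0.274). Each was smaller than its standard error, and the WT and KO values of each of the 35 promoters overlapped.

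Values by library show what lies behind these changes. Pola1 had log2 values of 7.74, 7.07 and 8.08 in WT and 7.60, 6.40 and 8.11 in KO, so that KO2 was low while KO1 lay within the WT range and KO3 just above it. Chaf1a had 8.11, 7.87 and 8.26 in WT and 7.88, 7.25 and 8.37 in KO, again with KO2 lowest. Cdk1 had 8.87, 8.31 and 9.23 in WT and 8.55, 7.91 and 9.32 in KO. In each of the 3 genes KO2 was the lowest of the 6 libraries and KO3 the highest.

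**Figure D3:**
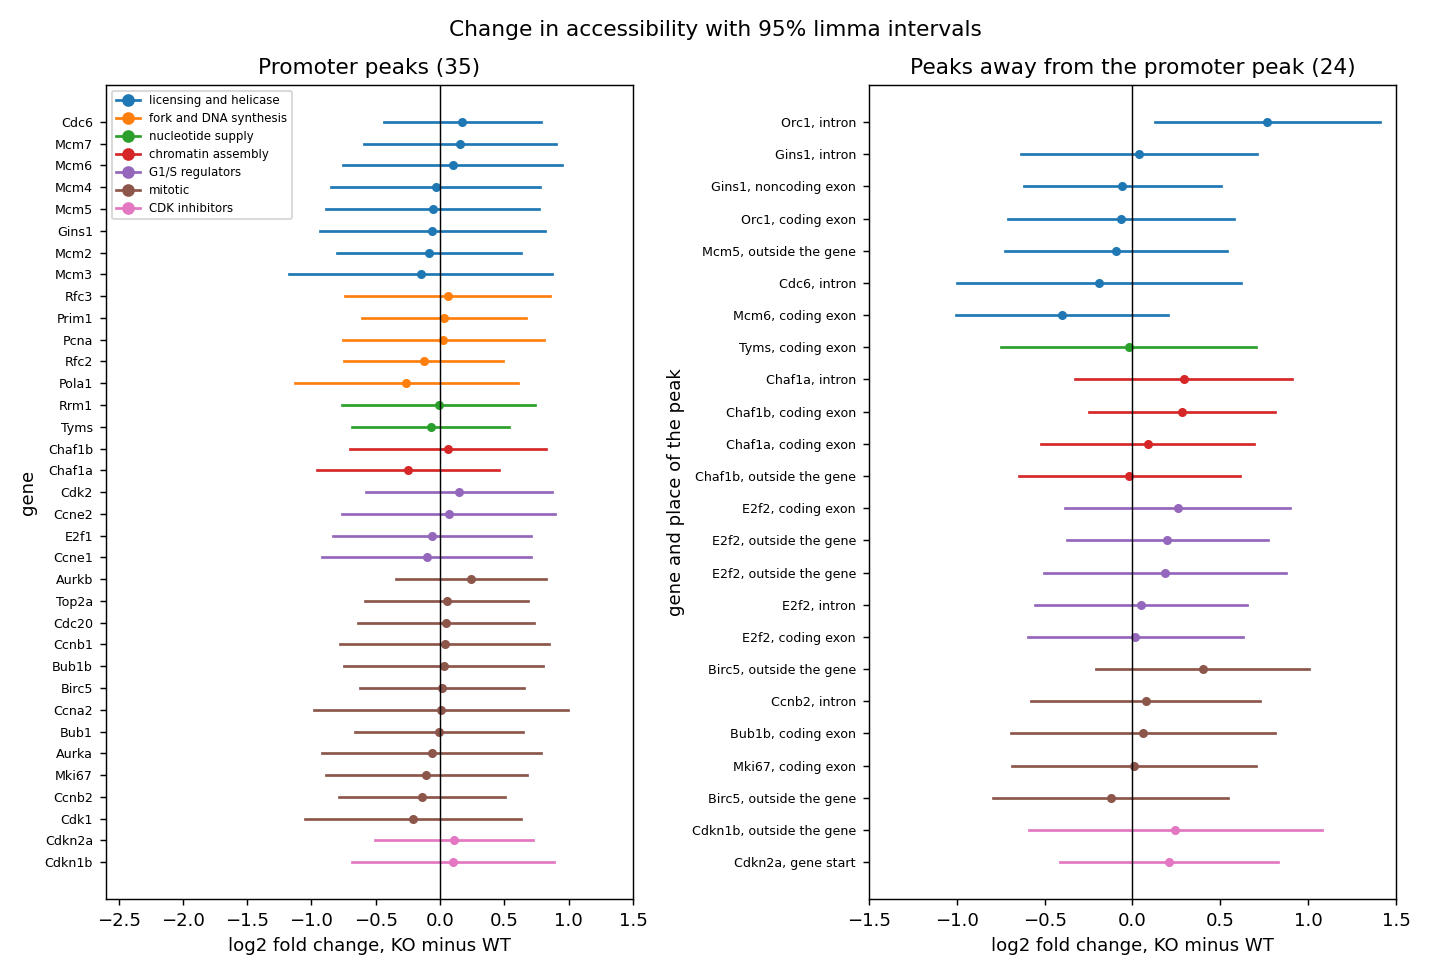
Log2 fold change of KO minus WT (x axis) with its 95% limma interval for 35 promoter peaks (left) and 24 other peaks (right), coloured by role. The intervals of the promoter peaks all cross 0, and the Orc1 intron peak on the right, at 0.77, is the one whose interval does not.

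The precision of this comparison was limited by the spread between libraries. The 95% interval of the log2 fold change lay inside -1 to 1, a 2-fold change either way, at 32 of 35 promoter peaks, and not at Pola1, Mcm3 and Cdk1. The lowest bound was -1.17 (Mcm3, 0.444-fold) and the highest 0.997 (Ccna2, 1.996-fold). The median promoter interval reached 0.771 to each side. These intervals are not adjusted for the number of peaks tested. A call after adjustment would therefore need a change larger than 0.771 at a promoter with that interval, and how much larger was not tested. Promoter peaks held 31 to 1188 reads per library.

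Start peaks that carry another gene's name were also measured, and their reads may belong to that gene as well. The peak over the Gins2 start, at a WT level of 9.32 per kb, was above each of the 35 promoter peaks and had log2 values of 10.4, 9.98 and 10.5 in WT and 10.3, 9.94 and 10.7 in KO (log2 fold change 0.02). That over the Cdt1 start had 8.42, 8.03 and 8.52 in WT and 8.43, 8.25 and 8.68 in KO (0.13). The changes at the starts of Plk1 and Orc1 were -0.01 and 0.05. The lowest unadjusted limma p-value among the 4 was 0.67.

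The 24 member peaks other than the promoter peaks are called away from promoters here, although 1 lies at a second start of Cdkn2a (change 0.21). Of the 24 changes, 16 (66.7%) were above 0, against 46.9% of all peaks, with a median of 0.05. Among these peaks 5 belong to the single gene E2f2, and the difference in share was not tested. The single member peak with an unadjusted p-value below 0.05 was in an intron of Orc1 (chromosome 4, 108602101 to 108602700), 1391 bp from the nearest annotated Orc1 transcript start. Its log2 values were 5.14, 5.05 and 5.81 in WT and 6.03, 5.69 and 6.58 in KO, which overlap, since KO2 was below WT3. The log2 fold change was 0.77 (SE 0.30, 95% interval 0.13 to 1.41, 1.70-fold), with an unadjusted limma p-value of 0.0223 and an adjusted one of 1. It rested on 18 to 56 reads per library. The other Orc1 peak, over a coding exon, had a change of -0.07.

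Peaks whose KO values lay wholly on one side of the WT values numbered 2 of 59, against 6.8% of all peaks (2.7% above and 4.1% below). One was over a coding exon of Mcm6 (chromosome 1, 128337451 to 128338650), with 7.70, 7.88 and 8.15 in WT and 7.50, 7.41 and 7.61 in KO. Its log2 fold change of -0.40 (SE 0.282, 95% interval -1.004 to 0.20) was the largest fall among the members and did not pass at an unadjusted limma p-value of 0.176. This peak lay 9133 bp from the start of Lct, the lactase gene of enterocytes, whose known distal enhancer in humans is inside MCM6. The Mcm6 promoter peak had a change of 0.10 in the same libraries. The second was over a coding exon of Chaf1b (chromosome 16, 93906001 to 93907050), with 6.18, 6.37 and 6.43 in WT and 6.58, 6.61 and 6.64 in KO (log2 fold change 0.28, SE 0.248), with an unadjusted limma p-value of 0.27. It held 25 to 86 reads per library.

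Other large changes outside promoters were overlapping. The peak after the end of Birc5, which encodes the passenger complex subunit survivin (chromosome 11, 117855901 to 117856650), had 5.78, 6.24 and 5.36 in WT and 5.93, 6.47 and 6.17 in KO, a change of 0.40 with an SE of 0.284. A Chaf1a intron peak (chromosome 17, 56050951 to 56051700) had 5.43, 6.24 and 6.04 in WT and 6.48, 6.30 and 5.80 in KO, a change of 0.29 with an SE of 0.289. In that peak WT1 was the lowest library and KO1 the highest. The 5 E2f2 peaks had changes of 0.02 to 0.26. The changes of the remaining peaks away from promoters lay between -0.19 (Cdc6 intron) and 0.24 (Cdkn1b, outside the gene).

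A wider list was measured in the same way. Of 98 such genes (further origin, fork, G1/S and mitotic genes, none of them members), 87 had 213 peaks. None was called by limma after adjustment, 1 (0.469%) had an unadjusted p-value below 0.05, and 5 (2.35%) did not overlap between groups, 2 above and 3 below, against 2.28% and 6.8% of all peaks. The peak with the unadjusted call was one of E2f3, an activating E2F factor (chromosome 13, 29902651 to 29902950). It had 4.29, 4.20 and 4.09 in WT and 5.03, 5.56 and 5.17 in KO, a log2 fold change of 1.06 (SE 0.339) with an unadjusted limma p-value of 0.00712, on 9 to 33 reads per library. The next largest rise was at a Cdk6 peak (0.91, 5 to 27 reads), and the largest falls were at Cenpe (-0.88, 1 to 29 reads) and Rbl2 (-0.88, 1 to 35 reads), where KO3 was far below the other libraries. The 31 promoter peaks of other replication genes had a median change of 0.00 and the 29 of other mitotic genes -0.05. Of the latter, 8 of 29 (27.6%) were above 0, against 52.7% of named promoter peaks. The difference between the medians of these genes and those of the members was not tested.

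Libraries differed more than genotypes at these genes. Reads in peaks ran from 4339306 (KO3) to 16301164 (WT3). The libraries numbered 2 stood apart in both genotypes, with first principal component scores of 116.3 (WT2) and 116.5 (KO2), while the others lay between -138.7 and 6.38. In whole-peak values, not per kb, named promoter peaks exceeded distal peaks, those over 5 kb from any gene start. The gap was 2.02 and 1.90 in WT2 and KO2 and 2.11 to 2.45 in the others (log2, medians). Promoter peaks were also wider, with a median of 1500 bp against 600 bp. Per kb, the WT medians were 7.14 for promoter and 6.37 for distal peaks. The labels do not say what the numbers mark, and the part of library quality in this was not tested.

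The cell cycle promoters followed that pattern. WT2 was the lowest WT library at 31 of 35 promoter peaks and KO2 the lowest KO library at 32 of 35, and both held at 30 of 35 (85.7%), against 64.3% of named promoter peaks. WT3 was highest at 33 of 35 and KO3 at 33 of 35, against 75.6% and 79.0% of named promoters. The median gap of WT2 to the mean of the other WT libraries was -0.57 on the log2 scale, and that of KO2 to the other KO libraries -0.72. For named promoters these gaps were -0.42 and -0.52. Peak strength was not matched here, and the members had a higher median WT log2 value (8.13 against 7.74). The gap was alike in the replication class (-0.65 and -0.72) and the mitotic class (-0.66 and -0.73). At member peaks away from promoters it was -0.05 and -0.19, and at distal peaks -0.32 and -0.17. Birc5 was an exception and had 8.06, 8.41 and 8.38 in WT and 8.14, 8.30 and 8.46 in KO, with WT2 the highest WT library.

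**Figure D4:**
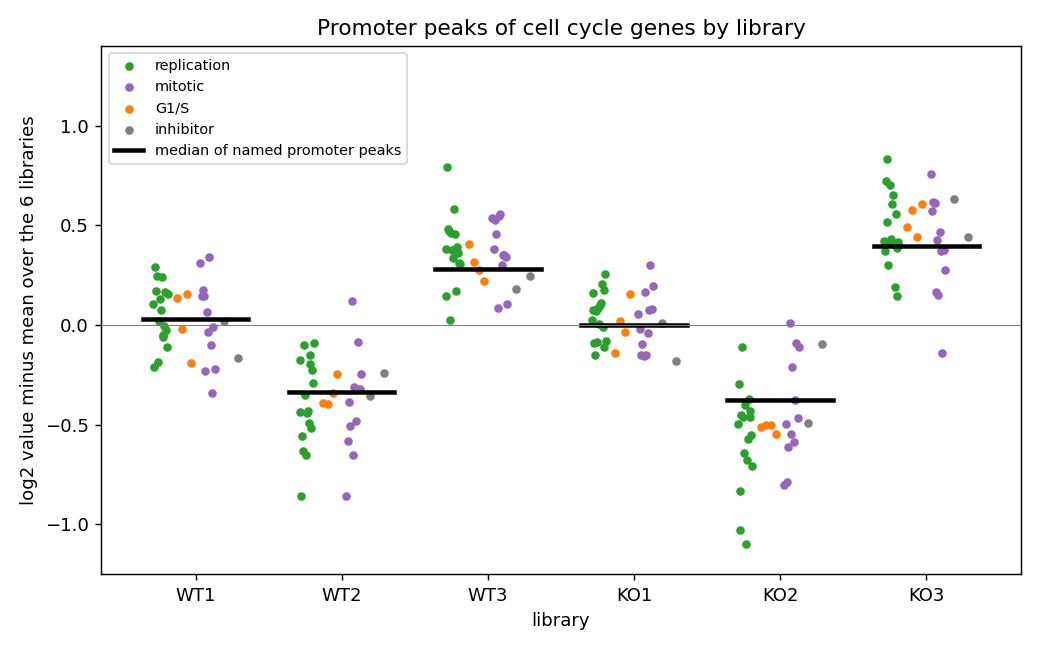
Log2 value of each promoter peak minus its mean over the 6 libraries (y axis) in each library (x axis), with 1 point per gene coloured by class. The black bar is the median of named promoter peaks in each library, minus the mean of these medians over the 6 libraries. WT2 and KO2 hold the lowest values and WT3 and KO3 the highest, in both genotypes.

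The spread between libraries of one genotype was compared with that of named peaks of equal strength, meaning a mean log2 value within 0.25. The median SD of the 35 promoter peaks was 0.438, against 0.389 for their equals and 0.125 from counting reads alone. The median percentile among equals was 56.7, with 21 of 35 above 50, at 57.5 for replication and 62.9 for mitotic promoters. The class as a whole therefore stood near the middle. Percentiles over 90 numbered 4 of 35 and those under 10 numbered 2 of 35, near the share that named peaks hold at each end by definition. The genes named next are the ends of this range. Mcm3, a helicase subunit, had the largest percentile at 99.0, with an SD of 0.867 and values of 9.10, 7.95 and 9.60 in WT and 8.88, 7.78 and 9.53 in KO. Ccna2 was next at 94.4 (SD 0.765). In both genes WT2 and KO2 lay below the other libraries of their genotype. Birc5 (percentile 6.12, SD 0.177) and Cdc6, the loader of the MCM helicase (6.52, SD 0.163), had the smallest. Cdc6 read 7.70, 7.79 and 7.91 in WT and 7.96, 7.78 and 8.19 in KO, an SD close to that of counting.

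**Figure D5:**
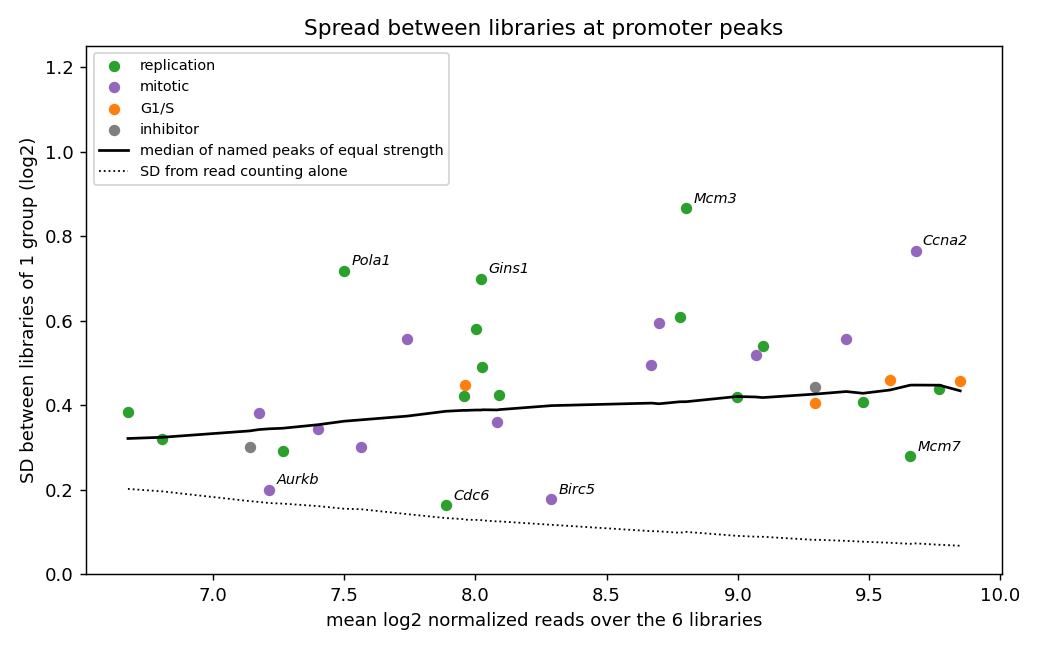
SD between libraries of one genotype (y axis, log2) against mean log2 value (x axis) for 35 promoter peaks, coloured by class, with the median of named peaks of equal strength as a solid line and the SD from read counting as a dotted line. Mcm3 (0.867) and Ccna2 (0.765) lie highest, and Cdc6 (0.163) and Birc5 (0.177) lowest.

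Motif content was also set against the values over all named promoters with a window. The 333 promoter peaks with an E2F match had a median WT level of 7.57 per kb and a median log2 fold change of 0.03, and the 7653 without had 7.41 and 0.00. The 1132 with a CHR match had 7.33 and 0.01, and the 6854 without had 7.43 and 0.00. No test was run on these groups.

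Markers of other cells were measured in the same libraries. Of the immune markers, 3 had a promoter peak (Cd3g, Cd74 and Ptprc), with a median log2 fold change of 0.64, and their summed level was 108 to 215 in WT and 192 to 334 in KO (normalized reads). The median was that of Cd3g, a weak peak with log2 values of 4.32 to 5.40 in WT and 4.80 to 6.10 in KO. Cd74 had an unadjusted limma p-value of 0.0432, where 2.28% of all peaks were below 0.05. Its WT and KO values overlapped. Cd3e, Cd79a, Itgam and Csf1r had no promoter peak of their name. Of 8 epithelial markers, 5 had one, with a median log2 fold change of 0.13, while Vil1, Epcam and Krt8 had none of their name. The median changes at promoter peaks were 0.06 for crypt stem cell markers (4 peaks), -0.09 for absorptive enterocytes (3), 0.20 for goblet cells (4), 0.20 for enteroendocrine cells (2), 0.28 for tuft cells (3), 0.05 for Paneth cells (1) and 0.09 for stromal cells (4), and none of these peaks had an unadjusted limma p-value below 0.05. The part of such cells in the members' values was not tested.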

How the data were processed

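ATAC-seq nuclei of whole small intestinal crypts gave 3 WT and 3 KO libraries, grouped and numbered by their titles. The authors trimmed reads with Trim Galore (0.4.1), mapped them to GRCm38 with Bowtie2 (2.2.5), and removed duplicates and called MACS peaks in SeqMonk, and whether libraries were pooled for calling is not given in the sources used here. The values that the authors deposited are log2 read counts per peak, scaled to the largest library, and peaks were named by the authors for a gene within 5 kb. A second deposited table holds the authors' own edgeR comparison and was not used.

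The deposited log2 values were tested in limma (3.58.1, R 4.3.3) by lmFit and eBayes(trend=TRUE), two-sided, over 123510 peaks and 6 libraries, with no covariate, filter or pseudocount, and Benjamini-Hochberg adjustment at 0.05. Limma on these values was used in place of the authors' tool, with voom on recovered reads as an alternative. Whole reads were recovered at a tolerance of 0.1 read for 100% of values, giving 4339306 to 16301164 reads in peaks per library. Starts and exons came from GENCODE vM21 and promoter sequences from RefSeq. Promoter peaks were those within 1 kb of any annotated start of the gene they carry the name of. For members and the other listed genes the strongest was taken if there were several, while the set of named promoter peaks kept all.

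The members and lists were chosen with earlier results of these data known. Named peaks were the highest and lowest promoter level in each role, the 4 largest changes in each direction, any member with an unadjusted p-value below 0.05, and the 2 largest and 2 smallest spreads. Single peaks outside that rule (Gins2, Cdt1 and others named for context) were chosen after their values were seen. The alternatives were median centring, the trimmed mean of M values, quantile normalization, voom on recovered reads, a minimum mean of 64, a pseudocount of 5, leaving out single libraries, a replicate block, other thresholds (0.1 and 0.01), promoters within 2 kb, whole-peak levels, means, and a strength window of 0.5. The fit was also run on simulated data with planted changes larger than any of the members and no shift shared between libraries. That run does not speak to changes of the members' size. Figures were drawn in Python (3.11.15). One gene of the marker lists is not reported here.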

Additional observations from a re-analysis of the deposited data

How the results depend on the processing

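No member peak and no peak of the other cell cycle genes was called under any of the 15 alternatives that were run for these counts. Over all peaks, where the deposited values gave 0 calls, median centring and the trimmed mean of M values gave 2 each, quantile normalization and voom 3 each, leaving out a library 0 to 30 (30 without KO2), and the replicate block 272. With the replicate block, which cannot alter the change itself in this balanced design (replication promoter median -0.03), 2 of 59 member peaks had an unadjusted limma p-value below 0.05 (the Orc1 intron peak, 0.00207, and the Mcm6 coding exon peak, 0.0091, against 0.176 without it), where 6.87% of all peaks did, and the smallest adjusted p-value of a member was 0.281 (Orc1 intron). Same-numbered libraries correlated in their deviations from the group mean at 0.04, 0.42 and 0.41 for numbers 1 to 3. The labels do not say what the numbers mark, so the main fit did not pair them. Its intervals and p-values therefore include whatever variation numbers 2 and 3 share between genotypes. The median promoter change moved with single libraries, from -0.26 to 0.23 for replication and -0.27 to 0.22 for mitotic genes when 1 library was left out, with the highest values without KO2 and the lowest without WT2 (median of all peaks -0.14 to 0.08). The replication minus mitotic level in WT (0.24) was 0.19 with promoters within 2 kb, 0.026 with whole-peak values, 0.18 with means, 0.22 to 0.26 with 1 WT library left out, and 0.21 without promoters that hold another gene's start, an alternative added after seeing the data. The spread percentile of 56.7 was 36.6 after quantile normalization, 53.7 after median centring and 52.6 to 60.9 with a library left out. In 311 refits of 24 single peaks, 36 changes reversed in sign, in 17 peaks. Depth limits the low peaks, down to 6 reads, and the spread between libraries limits the promoters.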
